A study of Mus musculus with 2 samples.

Results

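The genes described here encode tau (Mapt) and 9 other proteins that bind microtubules or their tubulin subunits. They are Map2 and Map4, which share tau's repeat domain, Map1a and Map1b of the MAP1 family, Map6, and the stathmins Stmn1, Stmn2, Stmn3 and Stmn4. The genes were given by name and matched by symbol in the transcript tables and by gene identifier in the gene tables. All 10 matched, out of 55536 genes in the tables. Total RNA had been sequenced from the hippocampus of female B6CASTF1/J mice, a first-generation cross of the C57BL/6J and CAST/EiJ strains, at 18 to 20 months of age. The labels name the tissue as a layer of hippocampus and give 300 ng of RNA for each library, with ERCC spike-in RNAs. They put both libraries in 1 group, as biological replicates 1 and 2 with separate biosample labels but a shared donor label, so separate animals cannot be read from them. No treatment, younger age or other strain was part of the data, so there is no contrast and no p-value, and an SD over n = 2 covers only the spread between these libraries, which may be technical. The mice carry alleles of both strains, while the annotation used for counting is on mm10, a build of C57BL/6J. What part allele differences have in the values was not tested.

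Microtubules are polymers of tubulin that form the tracks and struts of axons and dendrites. Tau is found mainly in axons and MAP2 in dendrites and cell bodies, and both hold onto the microtubule with a row of short repeats. Whether tau has the fewer repeats (3R) or one more (4R) depends on its exon 10, and its amino-terminal inserts (0N, 1N or 2N) depend on exons 2 and 3. MAP1A and MAP1B are very large proteins cut into heavy and light chains, MAP1B being known from growing axons. MAP6, also called STOP, protects microtubules from cold. Stathmins bind free tubulin and favour disassembly, and STMN2 (SCG10) is known from growth cones. Map4 is the most widely expressed gene of the tau family.

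The repeat exon used here for the repeat classes has the same length, 93 bases or 31 codons, in Mapt, Map2 and Map4, and is followed in all of them by coding exons of 82 and 113 bases. It lies at chr1:66431527-66431619 in Map2 and at chr9:110072613-110072705 in Map4 (mm10, plus strand in both). These 2 sequences are shown because the repeat classes of Map2 and Map4 below rest on them. They were read 5′ to 3′ from the GENCODE M21 transcripts Map2-207 and Map4-204, with the repeat exon in capitals and 15 bases of the neighbouring coding exons in lower case.
Map2 repeat exon: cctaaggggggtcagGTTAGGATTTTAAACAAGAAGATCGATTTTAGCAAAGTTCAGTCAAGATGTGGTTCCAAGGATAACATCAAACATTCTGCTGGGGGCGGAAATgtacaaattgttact
Map4 repeat exon: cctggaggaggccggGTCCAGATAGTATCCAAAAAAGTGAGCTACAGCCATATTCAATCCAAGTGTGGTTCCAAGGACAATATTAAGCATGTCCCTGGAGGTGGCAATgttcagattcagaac
Aligned without gaps, the repeat exons of Map2 and Map4 matched at 59 of 93 bases (63.4%), and their 113-base exons at 82 of 113 bases (72.6%).

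The amino-terminal classes of tau and the long and short forms of Map2 turn on other exons. Mapt exons 2 and 3 hold 87 bases each and lie at chr11:104287123-104287209 and chr11:104289908-104289994. Transcripts with both are 2N, those with exon 2 alone 1N, and those with neither, in which exon 1 joins exon 4 directly, 0N. In the first line the capitals are exons 2 and 3 as joined in Mapt-201, and in the second they are the start of exon 4 in Mapt-204.
Mapt exons 2 and 3: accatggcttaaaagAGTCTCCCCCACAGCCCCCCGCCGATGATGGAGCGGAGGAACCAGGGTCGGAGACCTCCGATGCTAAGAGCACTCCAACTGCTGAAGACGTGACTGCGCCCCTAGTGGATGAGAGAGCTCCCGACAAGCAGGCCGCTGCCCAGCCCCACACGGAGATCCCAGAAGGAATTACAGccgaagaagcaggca
Mapt exon 1 to exon 4: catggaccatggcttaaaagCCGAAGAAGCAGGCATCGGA
The long form of Map2 holds a coding exon of 3741 bases (1247 codons) at chr1:66412407-66416147, which the short forms skip. They also lack the coding exons of 207 and 135 bases that follow it in Map2-204. The same 20 bases lead into either form, and the capitals show the exon that follows, the large exon in Map2-204 and the next one used in Map2-202.
Map2 long junction: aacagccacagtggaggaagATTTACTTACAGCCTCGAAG
Map2 short junction: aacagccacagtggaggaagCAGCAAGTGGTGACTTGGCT

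The libraries held 35358099 and 36307276 gene-assigned counts, with 0.493% and 0.489% of all counts on ERCC spike-ins, and the biological coefficient of variation between them was 4.66% over 17697 genes. Neuronal markers were abundant: the 5 general ones (Snap25, Syt1, Rbfox3, Slc17a7, Nrgn) summed to 2567 and 2445 TPM and the 4 of hippocampal fields (Wfs1, Prox1, Pcp4, Grik4) to 221 and 204 TPM, where TPM is an abundance per effective transcript length that has the same sum in every library. Markers of peripheral sensory neurons, the cells best known for big tau, summed to 0.65 and 0.71 TPM over 4 genes, with Isl1 at 0 counts in replicate 1 and 1 in replicate 2. The libraries differed in 2 other marker lists: all 6 oligodendrocyte genes were lower in replicate 2 (1197 against 872 TPM summed, median ratio 0.782) and all 4 meningeal fibroblast genes were higher there (26.0 against 53.4 TPM, median ratio 2.13). Their part in the values of the 10 genes was not tested. In tissue RNA, fewer cells of a type and less RNA per cell cannot be told apart.

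All 10 genes were detected, at 1 TPM or more in both libraries, and all stood above the median of the 12720 detected protein-coding genes, 14.4 TPM. Map2 was the highest, at 424 ± 2.02 TPM (SD, n = 2), and 62 protein-coding genes lay above it. Map1b followed at 267 ± 1.78, Map1a at 240 ± 0.0354, Stmn3 at 232 ± 3.60 and Map4 at 220 ± 7.97 TPM. Stmn1 stood at 173 ± 0.283, Stmn2 at 150 ± 1.12 and Mapt at 130 ± 3.40 TPM. Tau was therefore the eighth of the 10, with 520 protein-coding genes above it, and only Stmn4, at 96.1 and 84.0 TPM (SD 8.56), and Map6, at 40.8 ± 2.23 TPM, were lower. The 2 values of a gene never overlapped those of its neighbour in this order, although Map1a and Stmn3 were only 1.04-fold apart, and the highest and lowest were 10.4-fold apart. The median of the 10 was 199 TPM in replicate 1 and 193 in replicate 2.

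**Figure D1:**
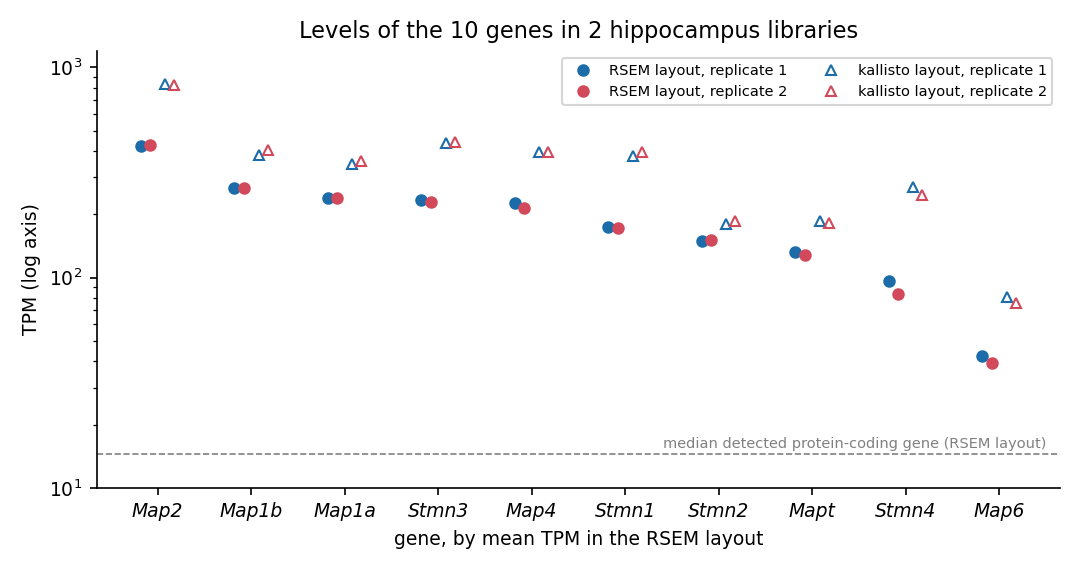
TPM on a log axis for each gene, with filled circles for the RSEM layout and open triangles for the kallisto layout, blue for replicate 1 and red for replicate 2. Replicates lie close together, Map2 is highest and Map6 lowest in both layouts, every kallisto value is above its RSEM value, and the dashed line marks 14.4 TPM, the median detected protein-coding gene in the RSEM layout.

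The same libraries were also quantified in a second set of tables, and the 2 sets are called here by the programs whose column names they carry, RSEM and kallisto. Levels are from the RSEM layout unless stated. Kallisto values were 1.22 times (Stmn2) to 2.86 times (Stmn4) higher, with a median of 1.85 over the 10 genes beside 1.67 over all detected protein-coding genes. Protein-coding genes held 45.0% and 43.3% of TPM in the RSEM layout but 78.3% and 78.7% in the kallisto layout. Rescaled over protein-coding genes alone, the kallisto value ran from 0.690 (Stmn2) to 1.62 (Stmn4) times the RSEM value, with a median of 1.04. The order in the middle of the range was thus not fixed by the data: by kallisto TPM, Stmn3 (439) came second, Stmn1 (389) lay beside Map1b (395) and Map4 (396), and Stmn4 (257) was above Mapt (183) and Stmn2 (183).

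Mapt (ENSMUSG00000018411.17, chromosome 11, 104231390 to 104332090, plus strand), the tau gene, had 13000 counts in replicate 1 and 12941 in replicate 2, or 133 and 128 TPM. Most of it was assigned to models of tau without amino-terminal inserts. Mapt-204, a 0N model of 372 codons, had 93.5 and 86.4 TPM, or 70.4% and 67.5% of the gene. Mapt-201, which encodes 2N tau of 430 codons, had 12.5 and 13.9 TPM. Over the 8 transcripts whose class could be read, 0N took 72.6 ± 2.02% of TPM, 1N 15.4 ± 1.01% and 2N 11.99 ± 1.01% (n = 2).

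The 1N share depended on the tables. It rested mainly on Mapt-207, an incomplete model of 293 bases, at 17.3 and 18.7 TPM from 85.5 and 99.0 counts. The kallisto layout listed that transcript at 0 in both libraries, which left 83.1 ± 0.769% 0N and 16.9 ± 0.769% 2N. As a share of counts instead of TPM, 0N took 95.0%, 1N 0.791% and 2N 4.17%. In every measure 0N was the largest class, while the order of 1N and 2N differed between TPM and the other measures. The model of Mapt-204 has 3903 bases after its stop codon and that of Mapt-201 only 32, a difference between models whose part in the shares was not tested. All these measures use the same models and so share this difference.

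The 3R and 4R forms of tau could not be separated in these tables. Of 12 Mapt transcripts in the annotation, 5 hold both coding exons that flank exon 10, and all 5 also hold exon 10. The 4R share was therefore 100% in both libraries and both layouts, fixed by the annotation and not by the reads. These 5 transcripts took 81.4% and 80.3% of Mapt TPM, and the rest lies in models that do not reach both flanking exons. No model exists to which a read joining the flanking exons without exon 10 could be assigned.

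Big tau is the form with the large exon 4A, known from the peripheral nervous system. Only Mapt-202 and Mapt-203 hold this exon, of 711 and 759 bases. Mapt-203, of 749 codons, had 1.74 and 1.63 TPM from 95.5 and 95.6 counts, and Mapt-202 was listed at 0 in both libraries. The big tau share was 1.31% and 1.27% of Mapt TPM (mean 1.29 ± 0.0260%). The kallisto layout gave 1.90 ± 0.0711%, and the share of counts was 0.737%, so all measures placed it under 2%. All of them use the same models, and that of Mapt-203 has 0 bases after its stop codon, against 3903 in Mapt-204. Mapt-203 also holds exon 6, of 198 bases, which only 3 Mapt models hold. Which exons its counts fall on was not tested, so the share is not a direct measure of exon 4A use. The sensory neuron markers Prph and Trpv1 were at 0.48 and 0.065 TPM, and what part such cells have in the big tau share was not tested.

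Map2 (ENSMUSG00000015222.17, chromosome 1, 66175273 to 66442583, plus strand), the dendritic relative of tau, had 50415 and 54153 counts, or 423 and 426 TPM. Its complete long and short models took similar shares of TPM. Map2-204, of 1828 codons, is the only complete long model, with 178 and 180 TPM. The 6 complete short models, of 466 to 498 codons, took 36.3% and 35.7% of the gene's TPM against 42.1% and 42.4% for the long one. Among complete forms the long form held 53.7% and 54.3% (mean 54.0 ± 0.401%), and the kallisto layout gave 54.0 ± 0.241%. By counts it was 58.6%. These shares leave out incomplete models, some of which overlap the large exon. The 7 models that overlap it, Map2-204 among them, took 48.9% and 49.7% of the gene's TPM, and 45.5% and 47.2% in kallisto. The model of Map2-204 has 181 bases after its stop codon, and those of the short forms have 3021 to 3576. What part this difference has in the shares was not tested, and both layouts use the same models.

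**Figure D2:**
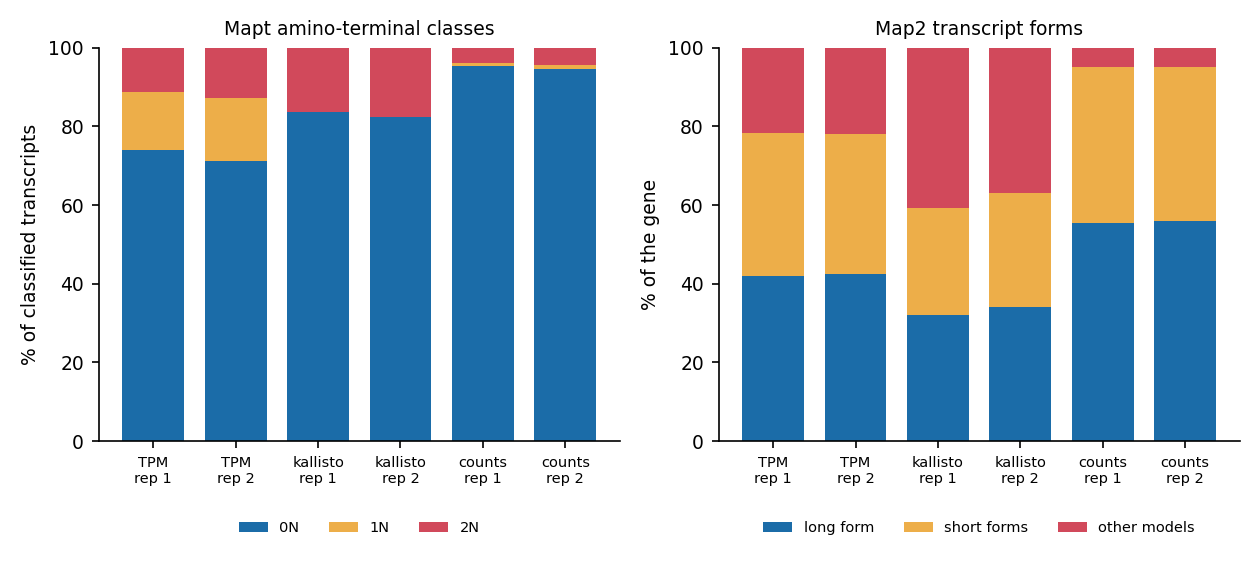
Stacked bars of the share (%) of Mapt transcripts classed as 0N, 1N and 2N (left) and of Map2 in its long form, short forms and other models (right), for each library by RSEM-layout TPM, kallisto-layout TPM and RSEM-layout counts. The 0N class is largest in all 6 Mapt bars, 1N is at 0 in kallisto, and the Map2 models outside the complete forms take a larger share in kallisto (38.8%) than by RSEM TPM (21.7%) or counts (4.86%).

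Within the short forms of Map2 the 2 layouts chose different transcripts. Map2-201 had 130 and 124 TPM in the RSEM layout but 0.00151 and 0.00456 TPM in kallisto. Map2-202 had 7.07 and 8.67 TPM in the RSEM layout but 193 and 202 TPM in kallisto. Both encode the same 467 codons, so the summed short forms were less affected than either transcript alone. Models that are not complete forms took 21.7 ± 0.170% of TPM, the highest being Map2-218, a model of 546 bases with 24.3 and 23.5 TPM (5.63% of the gene, 19.9% in kallisto). Map2-216, an incomplete model of 2195 bases, took 3.24%, and 7.65% in kallisto.

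The repeat exon of Map2, unlike that of tau, can be both held and skipped in the annotation, and most of the classed TPM lay on models that skip it. Of 11 transcripts that hold both flanking exons, 4 hold the 93-base exon, and only Map2-207, of 498 codons, had reads assigned in the RSEM layout. It had 8.57 and 9.67 TPM from 1138 and 1372 counts. The 4R share of Map2 was 2.49% and 2.78% (mean 2.64 ± 0.204%), with 3.21 ± 0.0355% in kallisto and 2.51% by counts. The long model Map2-204 does not hold the exon, and the fragments Map2-220 and Map2-221, which do, were at 0 in both layouts. No complete long model with the exon exists, so for the long form its absence was largely set by the annotation.

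Map4 (ENSMUSG00000032479.15, chromosome 9, 109931460 to 110083955, plus strand) had 18082 and 17989 counts, or 225 and 214 TPM. Here the repeat exon was mostly held. Of 9 transcripts with both flanks, 7 hold it, and they took 94.9% and 94.4% of the TPM of the 9 (kallisto 86.9 ± 1.87%, counts 95.0%). The chief skipping model, Map4-214 of 902 codons, had 6.07 and 6.11 TPM. Map2 and Map4 thus stood at opposite ends, with the exon in 2.64% and 94.7% of the transcripts that could be classed, a gap far over the spread between libraries in either layout. The Map2 share carries the limit given above, that its only complete long model lacks the exon.

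Map4 had the lowest share on its leading transcript of the 10 genes. Map4-204, of 933 codons, led with 74.5 and 68.0 TPM, only 32.4 ± 0.934% of the gene (22.6 ± 1.39% in kallisto). Map4-206, a model of 99 codons that shares no base with Map4-204, had 45.7 and 43.4 TPM (20.3%). Map4-209, a processed transcript of 940 bases that also shares none, had 41.1 and 42.2 TPM (19.0%), and kallisto gave it 12.2%. Map4-210 reached 10.1% and 9.95% in kallisto and 5.85% in the RSEM layout. Transcripts classed as protein-coding held 74.9% and 73.5% of Map4 TPM. Transcripts that could be classed by the repeat exon made up 52.5% and 51.4%, so the gene's TPM covers much beyond these models.

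Map1b (ENSMUSG00000052727.6, chromosome 13, 99421446 to 99516540, minus strand) and Map1a (ENSMUSG00000027254.13, chromosome 2, 121289600 to 121310832, plus strand) had the most counts of the 10, 68420 and 70861 for Map1b and 61152 and 64599 for Map1a. Per length the 2 genes were close, at 266 and 268 TPM for Map1b and 240 TPM in both libraries for Map1a, a 1.11-fold difference, with 395 and 354 TPM in kallisto. As a whole gene, Map1b, known from growing axons, thus stood above Map1a in this tissue of aged mice. On protein-coding transcripts alone Map1a was the higher in both layouts. In the RSEM layout Map1a-202 and Map1a-201 had means of 202 and 29.6 TPM, and Map1b-201 and Map1b-203 had 218 and 1.5 TPM. They share a run of coding exons of 102, 83 and 141 bases before 1 very large coding exon, of 6490 bases in Map1b-201 and 8104 in Map1a-201, and end alike with 153 bases.

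Each MAP1 gene had 1 dominant transcript. Map1a-202, of 8328 coding bases, had 206 and 199 TPM, or 84.2 ± 1.96% of the gene, and lacks the first 4 coding exons of Map1a-201. Map1a-201 had 28.0 and 31.3 TPM (12.3 ± 0.958%, kallisto 13.6%). Map1b-201 had 222 and 213 TPM (81.6 ± 3.01%). Map1b-206, a processed transcript of 2150 bases that shares 1979 with Map1b-201, had 24.4 TPM in replicate 1 and 36.2 in replicate 2 and was at 0 in kallisto, where Map1b-202 took 9.96% and 15.1%. Map1a overlaps Ppip5k1 on the other strand by 272 bases (3750 and 3893 counts on Ppip5k1), and whether counting used strand is not given in the sources used here.

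Map6 (ENSMUSG00000055407.14, chromosome 7, 99267447 to 99337137, plus strand), the gene of the cold-stabilising protein, was the lowest, with 3720 and 3749 counts, or 42.4 and 39.2 TPM. Its longest coding sequence, 906 codons in Map6-201 and Map6-205, took 59.5% and 63.8% of TPM (mean 61.7 ± 3.07%). The 2 models differ in length by a single base, 3430 against 3431, and the reads were split between them unevenly. Map6-201 had 16.1 and 22.01 TPM and Map6-205 had 9.09 and 3.05 TPM. The deposited posterior SD of the Map6-201 count was 494 and 502, beside counts of 1372 and 1999, so the split between the 2 models was poorly resolved and their sum is given. The form of 568 codons, Map6-204, took 18.6 ± 0.945%, and the form of 306 codons 14.1 ± 0.218%, assigned to Map6-202 in the RSEM layout and mostly to Map6-206 in replicate 1 of kallisto. In kallisto the longest form took 44.2 ± 2.59%, and Map6-209, a processed transcript of 677 bases, 22.3% and 19.4%, against 2.85% and 0 in the RSEM layout.

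The stathmins share an exon of 192 bases, preceded by one of 173 bases in Stmn1 and Stmn2, 176 in Stmn3 and 209 in Stmn4. Stmn2, Stmn3 and Stmn4 also have a coding exon of 96 bases that Stmn1 lacks; it falls in the part known to anchor these proteins to membranes, and Stmn1 is cytosolic. Over aligned coding bases the 4 genes were 70.2% (Stmn1 and Stmn3) to 74.5% (Stmn1 and Stmn2) identical.

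Stmn3 (ENSMUSG00000027581.12, chromosome 2, 181306459 to 181314500, minus strand) was the highest stathmin, with 6196 and 6479 counts, or 234 and 229 TPM. It has 1 transcript, so no split between models enters its level. Stmn1 (ENSMUSG00000028832.11, chromosome 4, 134468320 to 134473843, plus strand) had 4221 and 4504 counts and 173 TPM in both libraries, with 97.6 ± 0.368% on Stmn1-201. Kallisto put 71.2% on Stmn1-201 and 28.1% on Stmn1-203, which encodes the same 149 codons and had 1.63 and 1.44 TPM in the RSEM layout.

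Stmn2 (ENSMUSG00000027500.10, chromosome 3, 8509360 to 8561606, plus strand), the growth-cone stathmin, had 5596 and 5981 counts, or 149 and 151 TPM. Of this, 28.7% and 29.5% lay on Stmn2-203, a processed transcript of 308 bases, from only 228 and 254 counts, or 4.16% of the gene's counts. Kallisto gave Stmn2-203 no reads. On the coding transcript alone, Stmn2-201 of 179 codons, the RSEM level was 106 TPM in both libraries, and in kallisto it was 179 and 186 TPM.

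Stmn4 (ENSMUSG00000022044.14, chromosome 14, 66344296 to 66361680, plus strand), the lowest stathmin in the RSEM layout, had 2838 and 2593 counts, or 96.1 and 84.0 TPM. Stmn4-201, of 189 codons, led with 74.6 and 64.2 TPM (77.0 ± 0.843%). In kallisto the leading model was Stmn4-209, an incomplete one of 418 bases, with 117 and 112 TPM from 265 and 256 counts. It was listed at 0 in the RSEM layout, and Stmn4-201 took 38.9% in kallisto. As a whole gene Stmn4 stood above Mapt in kallisto, while Stmn4-201 alone, at 107 and 93.3 TPM, was under the 183 TPM of Mapt.

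**Figure D3:**
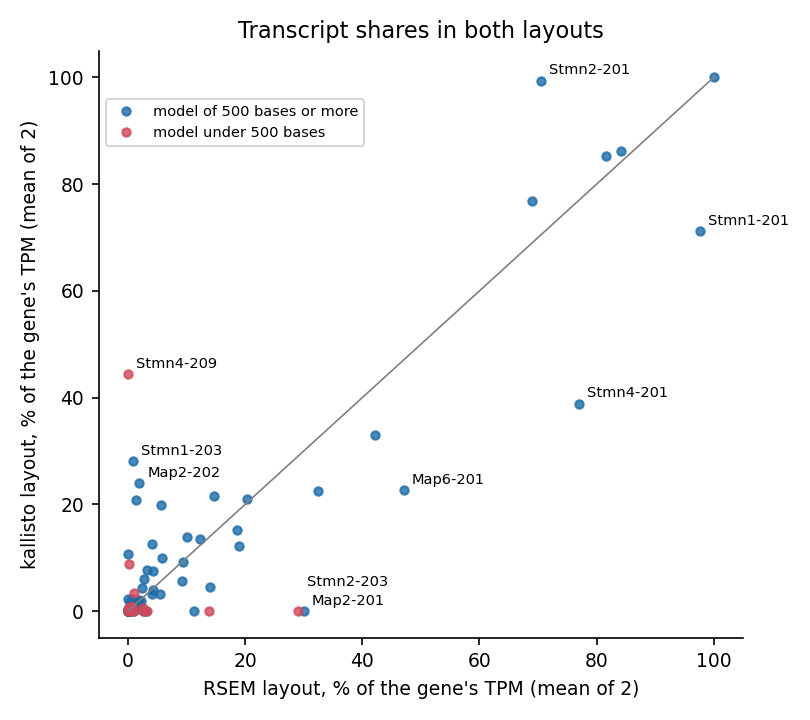
Each point is 1 of the 91 transcripts of the 10 genes, with its share of the gene's TPM in the RSEM layout on the horizontal axis and in the kallisto layout on the vertical axis (%, mean of 2 libraries). Red points are models under 500 bases, the grey line marks equal shares, and the named points, such as Stmn4-209 (0 against 44.4%) and Stmn2-203 (29.1% against 0), lie far from it.

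Over the 91 transcripts, 8 of the 10 genes had the same leading transcript in both layouts and both libraries, the exceptions being Map6 and Stmn4. In 7 genes over 90% of TPM was on transcripts classed as protein-coding in both libraries. The other 3 were Map4 (74.2 ± 1.01%), Map1b (82.1 ± 3.07%) and Stmn2 (70.5 ± 0.499%), and by counts all 10 passed 90%. The layouts correct for length differently. Their effective lengths correspond to a mean fragment of 100 bases in the RSEM layout and of 336 and 334 bases in kallisto, so a model of 308 bases such as Stmn2-203 keeps an effective length of 209 bases in the former and 71.4 in the latter.

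Between the libraries the 10 genes differed little. Ratios are of expected counts scaled with TMM, with exact 95% binomial intervals that cover counting error only. None of the 10 was over 1.2-fold apart, beside 10.4% of the 14307 genes that averaged 50 counts or more, and none was over 2-fold apart, beside 0.384%. The median absolute log2 ratio was 0.04 over the 10 and 0.07 over all these genes. With 10 genes, none past a line that 10.4% of genes pass is close to that background.

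Stmn4 was the furthest from equal, 1.12-fold higher in replicate 1 (interval 1.06 to 1.18), a difference that 20.98% of all genes exceeded in size. It was the same under every scaling tried and in kallisto (1.14-fold). Markers of oligodendrocytes stood lower in replicate 2 too, with Mbp at 621 and 443 TPM, and their part in the Stmn4 value was not tested. Mapt was 1.03-fold higher in replicate 1 (1.00 to 1.05) and Map4 1.03-fold (1.01 to 1.05). Map2 was 1.05-fold higher in replicate 2 (1.04 to 1.06) and Map1a 1.03-fold (1.02 to 1.04). Stmn2 was 1.04-fold and Map1b 1.01-fold higher in replicate 2, and the intervals of Map6, Stmn1 and Stmn3 included 1. By deposited TPM, Map1a, Stmn1 and Stmn3 lay on the other side of 1, with ratios of 1.000, 0.998 and 0.978, so the direction of these small differences depends on the scale.

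**Figure D4:**
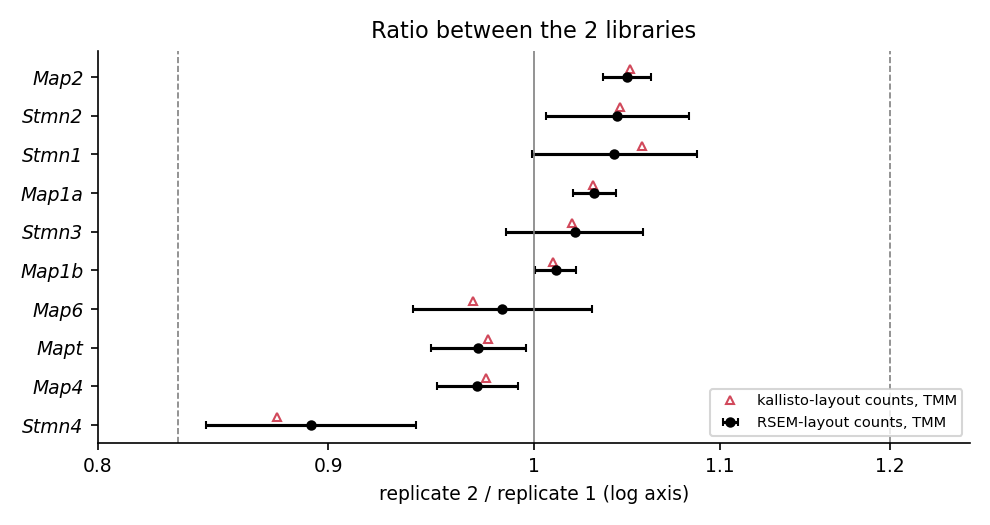
Ratio of replicate 2 to replicate 1 on a log axis for each gene, from RSEM-layout counts (black, with exact 95% binomial intervals) and kallisto-layout counts (red triangles), both after TMM scaling. All values lie inside the dashed lines at 1.2-fold in either direction, and Stmn4 lies closest to one of them.

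The other genes of the pathway were read from 7 lists. Among 14 other microtubule-associated proteins, all detected with a median of 35.1 and 34.4 TPM, Dclk1, a kinase with a doublecortin domain, was highest at 215 ± 0.382 TPM. Tppp (117 ± 0.990), a tubulin-polymerising protein of oligodendrocytes, and Map7d1 (96.3 ± 3.51) followed, and Map10 was lowest at 2.15 ± 0.170 TPM. Of these 14, only Dclk1 exceeded the median of the 10 genes. Among 14 plus and minus end proteins, all detected with a median of 48.3 and 46.8 TPM, the highest were Clip3 (180 ± 8.07), and the end-binding genes Mapre3 (87.6 ± 0.453) and Mapre2 (86.2 ± 1.08), and the lowest was Slain2 (9.33 ± 0.0495).

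Enzymes acting on the microtubule lattice were lower. Of 6 severing enzymes 4 were detected, with a median over all 6 of 12.6 and 10.4 TPM. They were led by Katnal1 (26.0 ± 0.552) and Spast (21.2 ± 0.601), the spastin gene, while Fignl1 stood at 0.515 ± 0.375 TPM. Of 15 tubulin modifying enzymes 12 were detected, with a median over all 15 of 14.2 and 13.2 TPM. Agtpbp1, a deglutamylase, stood far above the others at 142 ± 1.17, then came the glutamylase Ttll7 at 50.6 ± 2.01 and the acetyltransferase Atat1 at 20.4 ± 0.304, and Ttll6 was lowest at 0.10 ± 0.0849 TPM.

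**Figure D5:**
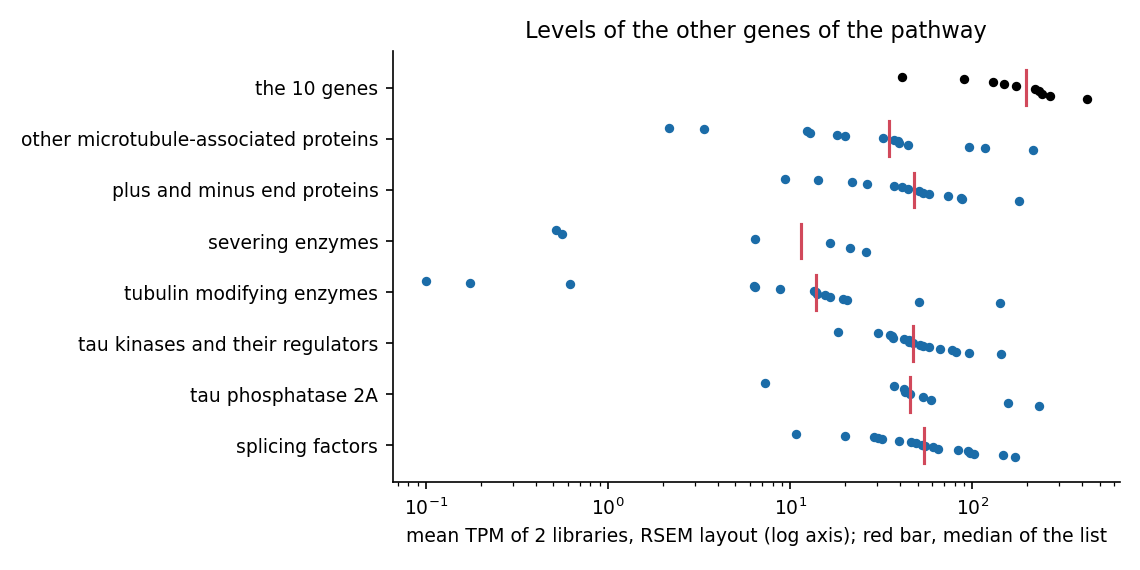
Mean TPM of 2 libraries (log axis, RSEM layout) of the 10 genes (black) and of the genes of 7 further lists (blue), with 1 point per gene and a red bar at the median of each list. The median of the 10 genes, 196 TPM, is to the right of the median of every other list, and the severing and tubulin modifying enzymes have the lowest medians.

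Genes that act on tau itself or on its splicing were described by 3 further lists. All 17 tau kinases and their regulators were detected, with a median of 47.3 and 47.0 TPM. Brsk1 was highest (144 ± 6.74), followed by Cdk5r1 (95.6 ± 4.02), the p35 activator of CDK5, and Gsk3a (81.7 ± 3.05), and Mark1 was lowest (18.3 ± 0.120). All 9 genes of protein phosphatase 2A, the main tau phosphatase, were detected, with a median of 45.0 and 46.3 TPM. The scaffold Ppp2r1a led at 233 ± 1.97 TPM, then came the regulatory subunit Ppp2r2c (157 ± 5.37) and the methylesterase Ppme1 (59.1 ± 0.636), and Ppp2r1b was lowest (7.22 ± 0.255). All 18 splicing factors were detected, with a median of 55.2 and 52.9 TPM, led by Celf2 (170 ± 1.21), Rbfox1 (147 ± 8.72) and Rbfox3 (102 ± 5.86), and Nova1 was lowest at 10.7 ± 0.594 TPM.

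Of the 93 genes in these lists, 90 averaged 50 counts or more and were compared between libraries. Of these 90, 1 was over 1.2-fold apart, beside 10.4% of all genes compared: Vash2, a tubulin detyrosinase, with 51 and 66 counts, a ratio of 1.26 and an interval that includes 1 (0.864 to 1.86). None of the 90 was over 2-fold apart, beside 0.384%. The 3 genes with too few counts to compare were Fignl1 (24 and 19 counts), Ttll6 (13 and 3) and Agbl1 (16 and 13). The kinases were lower in replicate 2 in 13 of 17 tested genes with a median log2 ratio of -0.02. The splicing factors were lower in 13 of 18 with a median of -0.03, against 0.000404 over all genes. It was 8 of 14 for the other microtubule-associated proteins and 6 of 14 for the plus and minus end proteins. For severing enzymes it was 3 of 5, for tubulin modifying enzymes 5 of 13 and for phosphatase 2A 5 of 9. The share of all genes lower in replicate 2 was not counted, so these counts are not read as a shift of any list. Of the splicing factors known to act on tau exon 10, Srsf2 had 67.2 and 62.5 TPM, Tra2b 30.9 and 26.7 TPM and Srsf6 41.0 and 38.2 TPM. By scaled counts their ratios of replicate 2 to replicate 1 were 0.966, 0.913 and 0.983. Only the interval of Tra2b (0.850 to 0.980) left out 1, and 5 of the 18 splicing factors were higher in replicate 2. Their levels are not set against the exon, since its use could not be measured here.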

How the data were processed

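The deposited gene tables give, per the file headers in RSEM's column names, an expected count, TPM, FPKM and posterior means with credible bounds for each gene. The authors' transcript tables of the same layout add the percent of its gene that each transcript takes. A second deposited transcript table gives, per the file headers in kallisto's column names, an estimated count and TPM. Build mm10 and annotation GENCODE M21 are per the deposited notes; the sources used here give no aligner, program version or strand setting.

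Expected counts were rounded and, after edgeR's filterByExpr, scaled by TMM (edgeR 4.0.16 under R 4.3.3), leaving out spike-in and unnamed rows, and 95% binomial intervals of ratios were computed with scipy 1.17.1. DESeq2 1.42.0 size factors, library totals and ERCC totals were alternatives. Reads carry no molecular identifiers in these tables. Exons, coding sequences and classes come from the M21 annotation, and sequences from its transcripts, aligned with Biopython 1.88. The ratio procedure was also run on simulated data with changes larger than the ratios of the 10 genes, and its outcome is not given here. The members, lists and thresholds were chosen with earlier results of these data known. All 10 members are named; of each of the 7 lists the 3 highest, the lowest and any gene over 2-fold apart; transcripts of Mapt and Map2 from a 5% share or where they decide a class, and of the others from 10%. A few genes and a sequence that this rule or the text would take in are not reported here. Vash2, Srsf2, Srsf6, Tra2b, Prph, Trpv1, Isl1 and Mbp, and the transcripts Mapt-202, Mapt-203, Map2-220, Map2-221 and Map4-214, were named after their values were seen or because a class rests on them. The lists of interneuron, oligodendrocyte precursor, astrocyte, microglia, immature neuron and endothelium markers (summed TPM 409 and 384, 37.1 and 37.0, 956 and 917, 74.2 and 72.9, 40.7 and 41.3, 49.8 and 48.5) held no gene over 1.2-fold apart among those compared; Igfbpl1 of the immature neuron list (18 and 5 counts) had too few counts.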

Additional observations from a re-analysis of the deposited data

How the results depend on the processing

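No paired analysis was possible because the labels hold 1 group. Counts of genes detected, over 1.2-fold apart and over 2-fold apart were 10, 0 and 0 under every alternative run for them, while genes over 1.2-fold apart numbered 1483 of 14307 in all, 3903 of 18350 once genes averaging 10 counts were let in and 2259 of 14305 by deposited TPM. The median of the 10 genes, 196 TPM, was 370 in the kallisto layout, 144 as FPKM, 192 as posterior mean, 449 when rescaled over protein-coding genes and 478 when the kallisto layout was so rescaled. The tau 4R share of 100% became 80.8% over all TPM of the gene. The big tau share of 1.29% was 1.90% in kallisto and 0.737% by counts. The Map2 long form share of 54.0% was 58.6% by counts and 42.2% over all TPM of the gene. With 1 library alone the median was 193 to 199 TPM, the big tau share 1.27% to 1.31% and the Map2 long form share 53.7% to 54.3%. Over 90% protein-coding TPM was found in 7 genes in every alternative but counts, where it was 10. These were not the same 7 genes in kallisto, where Stmn2 passed (99.2% and 99.6%) and Map6 did not (73.7% and 76.5%). The same leading transcript was found in 8 genes, and in 9 by counts or without replicate 2.

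Of 50 recomputed ratios of single genes, 6 lay outside the main interval and 3 had the other sign, all of them by deposited TPM. With 2 libraries of 1 group, leaving out a library leaves no ratio. The effect of depth was not tested. Transcripts with under 100 counts, among them Mapt-203 and Mapt-207, rest on few reads, and models that share most of their bases could not be separated.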

Other observations

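Of the 91 transcript models of the 10 genes, 60 are classed as protein-coding, 37 have a complete coding sequence and 16 are under 500 bases. The short models took 14.5% and 16.4% of Mapt TPM from 0.787% and 0.931% of its counts, and 28.7% and 29.5% of Stmn2 TPM from 4.08% and 4.24%. In the kallisto layout they took 48.4% and 49.8% of Stmn4, against 3.72% and 4.53% in the RSEM layout, and 7.84% and 9.65% of Map4, against 0.120% and 0.131%. The layouts therefore differed in both directions, and the cause was not tested. Together the 10 genes held 0.661% and 0.672% of gene-assigned counts.

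Besides Ppip5k1, some genes that overlap the 10 had reads. Gm42433 lies within the span of Map4 with 144 and 143 counts, 5330431K02Rik within that of Map1b with 164 and 159, and Gm45591 within that of Map6 with 48 and 41, all on the same strand as their host. The antisense gene Gm11659, which overlaps Mapt over 8460 bases, had 0 counts in both libraries.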
